A study of Mus musculus with 6 samples.

Results

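The genes of the mouse mitochondrial genome and the nuclear copies of a few of them were examined in EMT6, a mammary carcinoma cell line of the mouse grown here in culture. Members were every row of the table that maps to the mitochondrial genome, 37 genes whose symbols start with mt-, and the 3 chromosome 1 copies Gm28437, Gm28661 and Gm10925. This gave 40 of 53465 genes. The 37 mitochondrial genes were 13 protein-coding, 2 rRNA and 22 tRNA genes. The set was chosen by the P and PDR values of mt-Co3 and of its copy Gm28437 in these same libraries, so the comparison of the groups is given for all members as a description. No p-value of a member is printed, and counts of members called support nothing. Polyadenylated RNA was sequenced from 6 samples. In 3 of them (EMT6, here P, called Parental in the labels) cells had been kept with an isotype control antibody, and in the other 3 (EMT6 PDR, called anti-PD-L1 Resistant) with an antibody against PD-L1 (a ligand on the cell surface that inhibits T cells). Each antibody was present at 0.5 μg/ml, over a treatment of more than 4 weeks. The PDR cells were made by exposure in culture and were not taken from a treated tumor, and the labels do not say that the replicates of a group were separate cultures. Unless a legend of the study says otherwise, its replicates are technical ones. Standard deviations and p-values here therefore measure the spread between libraries, which may be wholly technical. Values of 3 libraries are listed in the order of replicates 1, 2 and 3 throughout. In bulk RNA fewer cells of a kind and less RNA per cell cannot be told apart.

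The mitochondrial genome encodes core subunits of the respiratory chain and the ATP synthase, together with the rRNAs and tRNAs that translate them inside the organelle. Both of its strands are transcribed into long RNAs that hold many genes, and these are cut apart mainly at the tRNAs between them. Most of the mRNAs then receive short poly(A) tails, which in several of them complete the stop codon. Fragments of the mitochondrial genome have also been inserted into nuclear chromosomes during evolution, and a recent insert can be nearly identical in sequence to the organelle's own genome. A read from such a stretch matches both places, and RSEM, the quantification program the authors used, divides it between them by an iterative estimate.

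Libraries held 17757341 to 32426739 estimated counts. With edgeR, 35 of 14217 tested genes were called between the groups at an adjusted p below 0.05. This count was 8 to 64 with 1 library left out, 111 with DESeq2 and 400 without the filter on low counts. Epithelial Krt8 (1031 to 1128 CPM, counts scaled to a library of 1000000) and Krt18 were present in every library together with mesenchymal Vim and Fn1, while Cdh1 and Cdh2 reached no more than 2 counts. Among the other epithelial markers Krt14 was at 6.67 to 9.24 CPM, Epcam at 1.24 to 2.41 CPM and Krt5 at no more than 4 counts. Leukocyte markers Ptprc and Adgre1 were at a count of 0 in all libraries, and of the 6 leukocyte markers Cd68 alone passed 1 CPM.

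The nuclear copies lie side by side on the minus strand of chromosome 1 (GRCm38), in a block of 7 annotated unprocessed pseudogenes from 24611535 to 24616197. Gm28661 (chr1:24614885-24615565) matches mt-Co2, Gm10925 (chr1:24613974-24614651) matches mt-Atp6, and Gm28437 (chr1:24613189-24613971) matches mt-Co3. These 3 copies are identical to the mitochondrial gene over their whole annotated length of 681, 678 and 783 bases. The mitochondrial transcripts are 684, 681 and 784 bases long, so mt-Co2 and mt-Atp6 each extend 3 bases past their copy and mt-Co3 extends 1 base past it. The last bases of each transcript (GENCODE M21 models, 5′ to 3′) are printed here because the whole difference between gene and copy lies in them. Capitals mark the bases of the mitochondrial transcript that the annotated copy does not hold.
mt-Co2: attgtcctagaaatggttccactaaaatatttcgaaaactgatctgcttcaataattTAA
Gm28661: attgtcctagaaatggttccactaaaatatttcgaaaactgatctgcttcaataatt
mt-Atp6: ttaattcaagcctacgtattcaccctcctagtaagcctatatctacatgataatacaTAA
Gm10925: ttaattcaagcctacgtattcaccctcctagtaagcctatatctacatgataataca
mt-Co3: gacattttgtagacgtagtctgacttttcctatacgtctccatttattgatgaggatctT
Gm28437: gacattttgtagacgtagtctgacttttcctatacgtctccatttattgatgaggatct
The capitals are the TAA stop codons of mt-Co2 and mt-Atp6 and the last T of mt-Co3, whose stop codon is completed by the poly(A) tail. The stretches shown are bases 7637 to 7696, 8548 to 8607 and 9331 to 9390 of the mitochondrial genome. In the nuclear block they are chr1:24614885-24614941, chr1:24613974-24614030 and chr1:24613189-24613247. Whether the nuclear sequence continues in the same way past the annotated ends was not examined here, as transcript models without the genome were used.

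The other 4 genes of the block are copies as well. Gm29216 matches bases 1063 to 1545 of mt-Co1 with 1 substitution, A1066T, and Gm28438 matches mt-Nd3 over 345 of its 348 bases with 1 substitution, T3C. In both, the base of the mitochondrial gene is given first and positions are counted from 1 at its 5′ end. Gm10222 is identical to the first 294 of 297 bases of mt-Nd4l, and Gm28439 is identical to the first 876 of 1378 bases of mt-Nd4. Outside chromosome 1, 2 less similar copies on chromosome 2 had a mean count of at least 10: Gm13340 at 10.9 (97.6% identical to mt-Co1) and Gm13341 at 21.6 (95.9% identical to mt-Co2). In the 2 mitochondrial rRNA genes and in mt-Nd1, mt-Nd2, mt-Atp8, mt-Nd4, mt-Nd5, mt-Nd6 and mt-Cytb no other annotated gene with more than 1 count on average shared at least 200 bases at 95% identity. These are called the 9 genes without a counted copy, and mt-Atp8 is one of them although its last bases overlap the start of mt-Atp6.

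The 37 mitochondrial genes took 1.33% to 1.64% of a library. Their share was 1.52%, 1.43% and 1.63% in P and 1.64%, 1.40% and 1.33% in PDR. The highest share (PDR replicate 1) and the lowest (PDR replicate 3) were in the same group, so the groups overlapped, at 1.52 ± 0.0985 in P and 1.46 ± 0.162 in PDR (% of counts, SD, n = 3). The 3 nuclear copies took a further 0.925%, 0.833% and 0.959% in P and 1.03%, 0.855% and 0.825% in PDR. Of all counts given to the 40 genes, the 3 copies received 37.9%, 36.8% and 37.1% in P and 38.5%, 37.9% and 38.2% in PDR. Before rounding, the lowest PDR value (37.93%) was just above the highest P value (37.88%), so here the groups did not overlap. This share holds the counts of mt-Co3 and Gm28437, whose values chose the set, and nothing is read from it. Together the 40 genes took 2.44%, 2.26% and 2.59% in P and 2.67%, 2.25% and 2.16% in PDR.

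**Figure D1:**
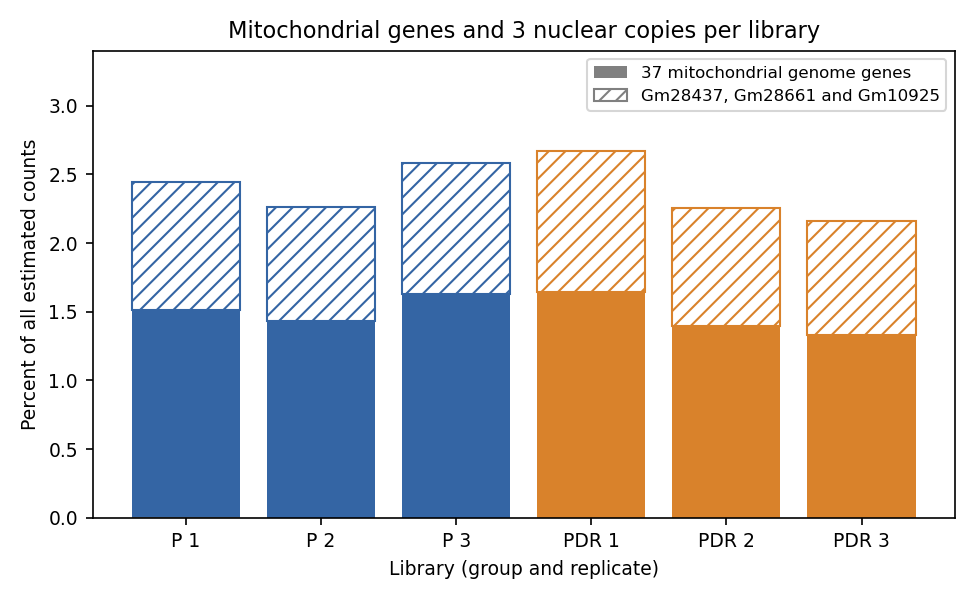
Percent of all estimated counts in each library (y axis) given to the 37 mitochondrial genome genes (solid) and to Gm28437, Gm28661 and Gm10925 (hatched), for P (blue) and PDR (orange) replicates 1 to 3. The sum runs from 2.16% in PDR replicate 3 to 2.67% in PDR replicate 1, and the P libraries lie between these.

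Most members were highest and lowest in the same few libraries. PDR replicate 1 or P replicate 3 was the highest library for 14 of the 18 members that passed the filter on low counts, with 7 members each, and PDR replicate 3 was the lowest for 13. The other 4 were mt-Co2 (highest in PDR replicate 3), mt-Atp6 (PDR replicate 2), mt-Co3 (P replicate 1) and mt-Nd3 (P replicate 2), each of which has a chromosome 1 copy. Over the 9 genes without a counted copy, the median deviation from the mean of the 6 libraries (log2 CPM) was 0.15 in PDR replicate 1 and 0.16 in P replicate 3. It was -0.12 in PDR replicate 2 and -0.17 in PDR replicate 3. PDR replicate 3 was also the shallowest library and PDR replicate 1 the deepest. The part of depth in these levels was not tested.

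Levels can be compared between genes only per length, so CPM were divided by the length of the gene in kilobases, with the counts of the chromosome 1 copy added to the gene it matches. On this scale the level spanned about an order of magnitude. The full annotated length was used, although a read fits at fewer positions than a gene has bases. This lowers short genes most, among them mt-Atp8 (204 bases), mt-Nd4l (297) and mt-Nd3 (348), and its part in the order was not tested. At the top stood mt-Atp6 with Gm10925, at a mean of 4937 CPM per kb over the 6 libraries (SD 498). The 3 cytochrome c oxidase subunits followed, mt-Co1 with Gm29216 at 4456, mt-Co2 with Gm28661 at 4156 and mt-Co3 with Gm28437 at 3993 CPM per kb. Neighbours among these 4 differed by less than the larger of their SDs between libraries, but within each library the order mt-Atp6, mt-Co1, mt-Co2, mt-Co3 was kept. Next came mt-Atp8 at 2343, mt-Nd1 at 2000.4 and mt-Cytb at 1510.4 CPM per kb. The remaining complex I genes ranged from 1045 (mt-Nd3 with Gm28438) down to 483 CPM per kb (mt-Nd4l with Gm10222). The rRNA genes were the lowest of the 15 genes, mt-Rnr2 at 420.0 and mt-Rnr1 at 362 CPM per kb. Without the copies, mt-Co2, mt-Atp6, mt-Co3 and mt-Nd3 would be at 42.6, 97.8, 242 and 292 CPM per kb, below the rRNA genes.

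**Figure D2:**
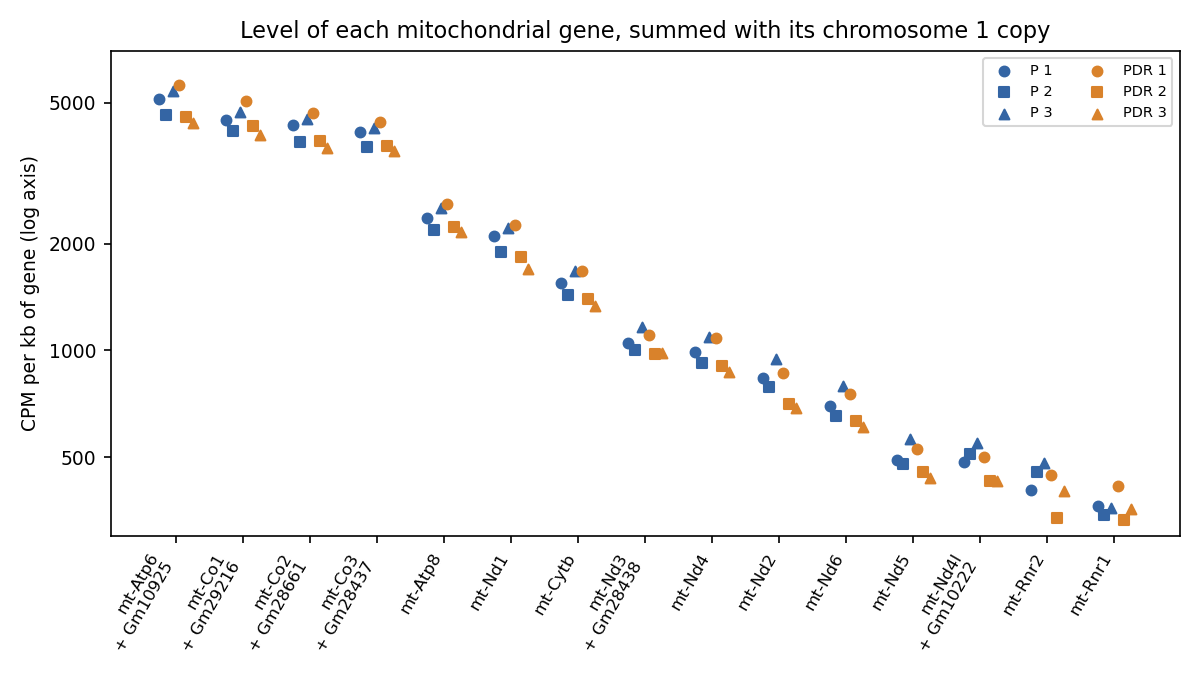
CPM per kilobase (log axis) of each mitochondrial protein-coding and rRNA gene, with the counts of the named chromosome 1 copy added, for each of the 6 libraries (P blue, PDR orange; circle, square and triangle are replicates 1, 2 and 3). Genes are ordered by mean level, from mt-Atp6 with Gm10925 (4937) to mt-Rnr1 (362), and PDR replicate 1 or P replicate 3 is highest in each gene.

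The rRNAs of the mitochondrial ribosome carry few A residues at their end and are poorly kept by poly(A) selection. mt-Rnr1, the small subunit rRNA (mitochondrial genome, 70 to 1024), was at 348, 328 and 343 CPM in P and 395, 318 and 341 CPM in PDR. mt-Rnr2, the large subunit rRNA (1094 to 2675), was at 638, 717 and 759.6 CPM in P and 704, 532 and 636 CPM in PDR. The lowest mt-Rnr2 value was in PDR replicate 2 and the highest in P replicate 3, and both genes overlapped between the groups. The log2 fold change of PDR against P was 0.050 (SE 0.0658) for mt-Rnr1 and -0.18 (SE 0.0888) for mt-Rnr2. Per length, mt-Rnr2 was 1.01 to 1.34 times as abundant as mt-Rnr1, with the 2 highest ratios in P replicates 2 and 3. Histone mRNAs of replicating cells also lack a poly(A) tail, and the summed counts of 70 of their genes were 0.00431% to 0.00539% of a library in P and 0.00353% to 0.00427% in PDR, and the groups did not overlap. Malat1, Neat1, Rmrp, Rpph1, Rn7sk and Rn7s1 overlapped between the groups. The part of poly(A) selection in the rRNA values was not tested. The 22 tRNA genes were nearly absent, as 17 were at a count of 0 in every library, 4 reached at most 1 count and mt-Ts1 had 2 to 6 counts. None of them passed the filter on low counts, which the other 18 members passed.

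Complex I, which takes electrons from NADH, has 7 subunits encoded in the mitochondrial genome. mt-Nd1 (2751 to 3707), next to the site where the complex binds quinone, was at 2013, 1818 and 2113 CPM in P and 2161, 1755 and 1626 CPM in PDR. mt-Nd2 (3914 to 4951), one of the proton-pumping subunits, was at 869, 818 and 981 CPM in P and 895, 732 and 713 CPM in PDR. P replicate 3 and PDR replicate 1 were the 2 highest libraries for both genes. The log2 fold change was -0.10 (SE 0.0886) for mt-Nd1 and -0.19 (SE 0.0840) for mt-Nd2. mt-Nd4 (10167 to 11544), another pumping subunit, was at 1363, 1273 and 1499 CPM in P and 1498, 1245 and 1196 CPM in PDR, with a log2 fold change of -0.069 (SE 0.0789). Its copy Gm28439 was listed at a count of 0 in every library. mt-Nd5 (11742 to 13565), the pumping subunit at the far end of the membrane arm, was at 893, 874 and 1023 CPM in P and 962, 829.7 and 796 CPM in PDR, with a log2 fold change of -0.11 (SE 0.0722). Both genes were lowest in PDR replicate 3.

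mt-Nd6 (13552 to 14070) lies on the opposite strand from the other protein-coding genes. It was at 362, 338 and 411 CPM in P and 391, 328 and 317 CPM in PDR, a log2 fold change of -0.10 (SE 0.0821). The strand setting of the counting is not given in the sources used here, so reads of mt-Nd6 and of RNA from the other strand cannot be told apart. mt-Cytb (14145 to 15288), the subunit of complex III next to it, was at 1772, 1643 and 1917 CPM in P and 1913, 1601 and 1521 CPM in PDR, with a log2 fold change of -0.082 (SE 0.0774). The groups overlapped in mt-Nd1, mt-Nd2, mt-Nd4, mt-Nd5, mt-Nd6 and mt-Cytb. The ratio of mt-Cytb to mt-Nd6 per length stayed within 2.12 and 2.22, a narrow range over all 6 libraries.

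mt-Atp8 and mt-Atp6, subunits of the ATP synthase, are read from one mRNA and overlap in part. mt-Atp8 (7766 to 7969) has no annotated copy in the chromosome 1 block and was at 483, 445 and 516 CPM in P and 529, 455 and 439.7 CPM in PDR. The groups overlapped, with a log2 fold change of -0.020 (SE 0.0688). mt-Atp6 (7927 to 8607) as listed was at 77.9, 54.0 and 83.6 CPM in P and 68.6, 92.8 and 22.7 CPM in PDR. Its lowest and its highest value were both in PDR. Gm10925 was at 3396, 3082 and 3584 CPM in P and 3743, 3011 and 2955 CPM in PDR, highest in PDR replicate 1 and lowest in PDR replicate 3. The sum of mt-Atp6 and Gm10925 per length was 2.03 to 2.16 times the level of mt-Atp8 in all 6 libraries. The part of the short length of mt-Atp8 (204 bases) in this ratio was not tested. mt-Atp6 alone varied by 37.9% (coefficient of variation over the 6 libraries), against 7.88% for mt-Atp8 and 9.94% for Gm10925. mt-Atp6 had a log2 fold change of -0.18 (SE 0.339), Gm10925 of -0.051 (SE 0.0817) and their sum of -0.054 (SE 0.0821).

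Cytochrome c oxidase, complex IV, has its 3 catalytic core subunits in the mitochondrial genome. mt-Co1 (5328 to 6872), the subunit that reduces oxygen, was at 5815, 5491 and 6178 CPM in P and 6558, 5614 and 5347 CPM in PDR. The groups overlapped, with a log2 fold change of 0.0031 (SE 0.0666). RSEM gave it 83.9% to 85.5% of the summed counts of mt-Co1 and Gm29216. mt-Co2 (7013 to 7696), which takes electrons from cytochrome c, was listed at 17.4, 47.5 and 25.2 CPM in P and 6.27, 21.5 and 57.0 CPM in PDR. Its copy Gm28661 was at 2934, 2599 and 3042 CPM in P and 3182, 2635 and 2492 CPM in PDR. The mitochondrial gene thus received 0.197% to 2.24% of the pair's counts. Its values overlapped widely between the groups, with the lowest in PDR replicate 1 and the highest in PDR replicate 3, and varied by 66.0% over the 6 libraries. The log2 fold change was -0.22 (SE 0.571) for mt-Co2, -0.045 (SE 0.0817) for Gm28661 and -0.046 (SE 0.0760) for the sum.

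mt-Co3 (8607 to 9390), the third core subunit, is the gene whose values chose the set. At an adjusted p below 0.05 the edgeR fit called 1 of 18 tested members, mt-Co3 itself, and 0.246% of all tested genes, and nothing is read from this count. The level of mt-Co3 was 306, 239 and 296 CPM in P and 89.7, 127 and 81.6 CPM in PDR. Every P library was above every PDR library, and the log2 fold change was -1.49 (SE 0.141). Gm28437, the copy identical to all but its last base, was at 2940.3, 2697 and 3033 CPM in P and 3360.1, 2838 and 2776 CPM in PDR. The groups overlapped in Gm28437, with a log2 fold change of 0.050 (SE 0.0667). Of the counts of the pair, mt-Co3 received 9.43%, 8.15% and 8.89% in the P libraries and 2.6%, 4.29% and 2.86% in the PDR libraries. The sum of both genes was 3247, 2936 and 3329 CPM in P and 3449.8, 2965 and 2858 CPM in PDR. In the sum PDR replicate 1 was the highest library and PDR replicate 3 the lowest, and the P libraries lay between them. Its mean was 3170.5 ± 207 in P and 3091 ± 315 in PDR (CPM, SD, n = 3), a log2 ratio of -0.037. Without PDR replicate 3 this ratio was 0.017. The mean of mt-Co3 alone was 281 ± 36.0 in P and 99.5 ± 24.3 in PDR (CPM, SD, n = 3).

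**Figure D3:**
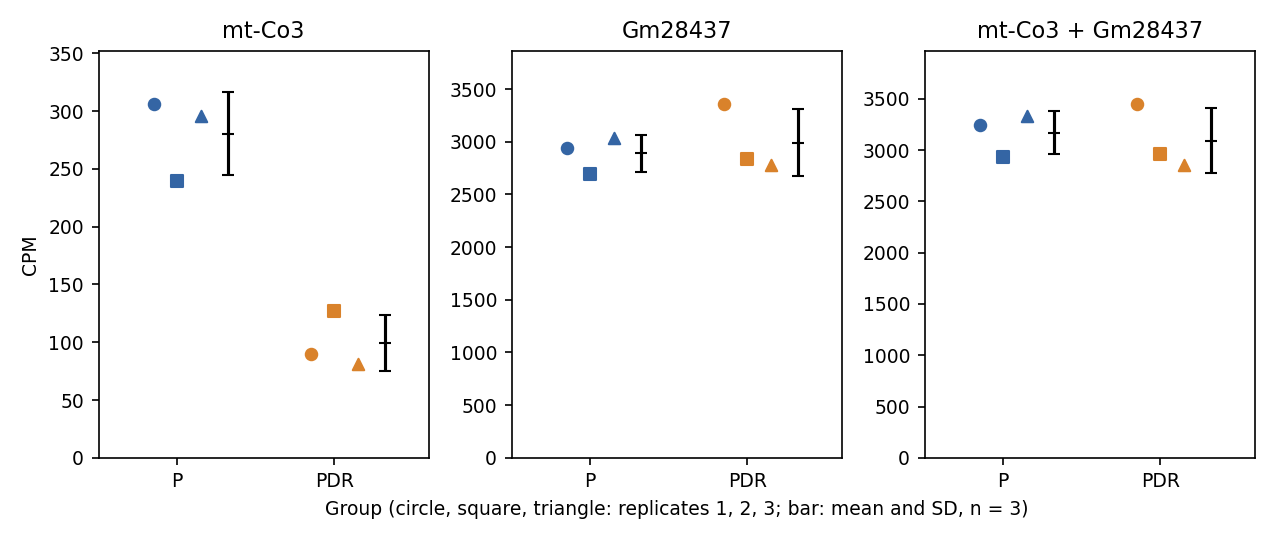
CPM of mt-Co3 (left), Gm28437 (middle) and their sum (right) in P and PDR, with the mean and SD of 3 libraries as black bars. The groups are apart in mt-Co3, at 281 and 99.5 CPM, and overlap in Gm28437 and in the sum.

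The estimated counts of mt-Co2 and mt-Atp6 lay near multiples of 1 step for each gene. mt-Co2 had 406.30, 1422.01, 609.44 estimated counts in P and 203.15, 609.45, 1015.76 in PDR. These were compared with the sequences. The read length is not given in the sources used here, and a stretch of 75 bases was picked after the values were seen because it brings the mt-Co2 and mt-Atp6 counts to whole steps. Their closeness to whole numbers is therefore a description and supports nothing. Such a stretch fits in mt-Co2 at 610 positions, and at 3 of them it reaches bases that Gm28661 does not hold, a ratio of 203. Divided by this ratio, the mt-Co2 counts were 2.00, 6.99 and 3.00 in P and 1.00, 3.00 and 5.00 in PDR. All 6 were within 0.00650 of a whole number. For mt-Atp6 the ratio is 202 (607 positions, 3 outside Gm10925), and the quotients were 8.99, 7.99 and 9.99 in P and 10.99, 12.99 and 2.00 in PDR, within 0.00934 of a whole number. For mt-Co3 it is 710.0 (710 positions, 1 outside Gm28437). Its quotients were 10.08, 10.10 and 10.08 in P and 4.10, 5.08 and 2.05 in PDR, within 0.0998 of a whole number.

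Rounded, the quotients of mt-Co3 were 10 in each P library and 4, 5 and 2 in PDR replicates 1, 2 and 3, or 30 against 11 in all. mt-Atp6 had 27 against 26 and mt-Co2 12 against 9. The edgeR fit was given the listed values, 1454 to 7171 estimated counts of mt-Co3 per library, and not these quotients. With 100 bases the quotients lay up to 0.292 (mt-Co2), 0.464 (mt-Atp6) and 0.468 (mt-Co3) from a whole number. Whether each step stands for a read was not tested.

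**Figure D4:**
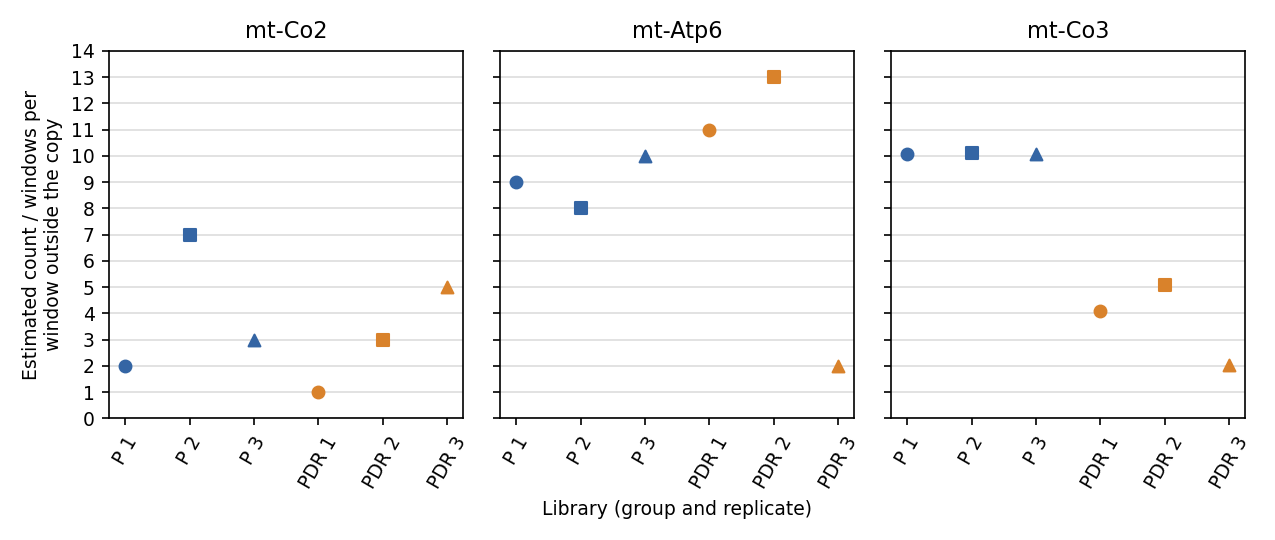
Estimated counts of mt-Co2, mt-Atp6 and mt-Co3 in each library, divided by the number of 75-base positions in the gene per position that reaches past the annotated copy (y axis, linear); P is blue and PDR orange. The points lie on or next to whole numbers, at 10 for mt-Co3 in each P library and at 4, 5 and 2 in the PDR libraries.

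mt-Nd3 and mt-Nd4l, complex I genes that also have a copy in the block, were divided in the same way. The mt-Nd3 quotients were 51.92, 87.87 and 39.50 in P and 81.88, 63.91 and 31.96 in PDR, nearest to halfway between whole numbers in P replicate 3. Those of mt-Nd4l were 45.08, 61.00 and 52.22 in P and 56.87, 48.50 and 25.94 in PDR. mt-Nd3 (9459 to 9806) was at 102, 134 and 74.6 CPM in P and 115, 103 and 81.9 CPM in PDR, and received 18.5% to 38.3% of the counts it shares with Gm28438. Its log2 fold change was -0.043 (SE 0.174), and -0.070 (SE 0.0597) for the sum. mt-Nd4l (9877 to 10173) was at 143, 151 and 161 CPM in P and 130.4, 127 and 108 CPM in PDR. Every P library was above every PDR library, with a log2 fold change of -0.31 (SE 0.0665). Its copy Gm10222 had 0.0300, 1.04 and 56.0 estimated counts in the P libraries and 596, 0 and 337 in the PDR libraries. The sum of mt-Nd4l and Gm10222 was 143, 151 and 163 CPM in P and 149, 127 and 127 CPM in PDR. In the sum PDR replicate 1 was above P replicate 1, so the groups overlapped, and the log2 fold change was -0.18 (SE 0.0653).

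Taking the genes as listed, 15 of the 18 tested members were lower in PDR and 3 were higher (mt-Rnr1, mt-Co1 and Gm28437), with a median log2 fold change of -0.091 against -0.0040 over all 14217 tested genes. The groups did not overlap in 2 members, mt-Co3 and mt-Nd4l, both lower in PDR, where 9.33% of all tested genes did not overlap in this direction. In 0 members did they not overlap with PDR higher, where 8.3% of all tested genes did. When each mitochondrial gene was summed with its chromosome 1 copy before the edgeR fit, a choice made after seeing the data, the 15 genes had a median log2 fold change of -0.070. They ran from -0.19 in mt-Nd2 to 0.050 in mt-Rnr1. mt-Co3 then had a log2 fold change of -0.036 (SE 0.0656). In this fit 0 of the 15 were called, as against 0.246% of all tested genes, so the count of 0 says little about them. The members share libraries and long precursor RNAs and are not independent of each other.

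**Figure D5:**
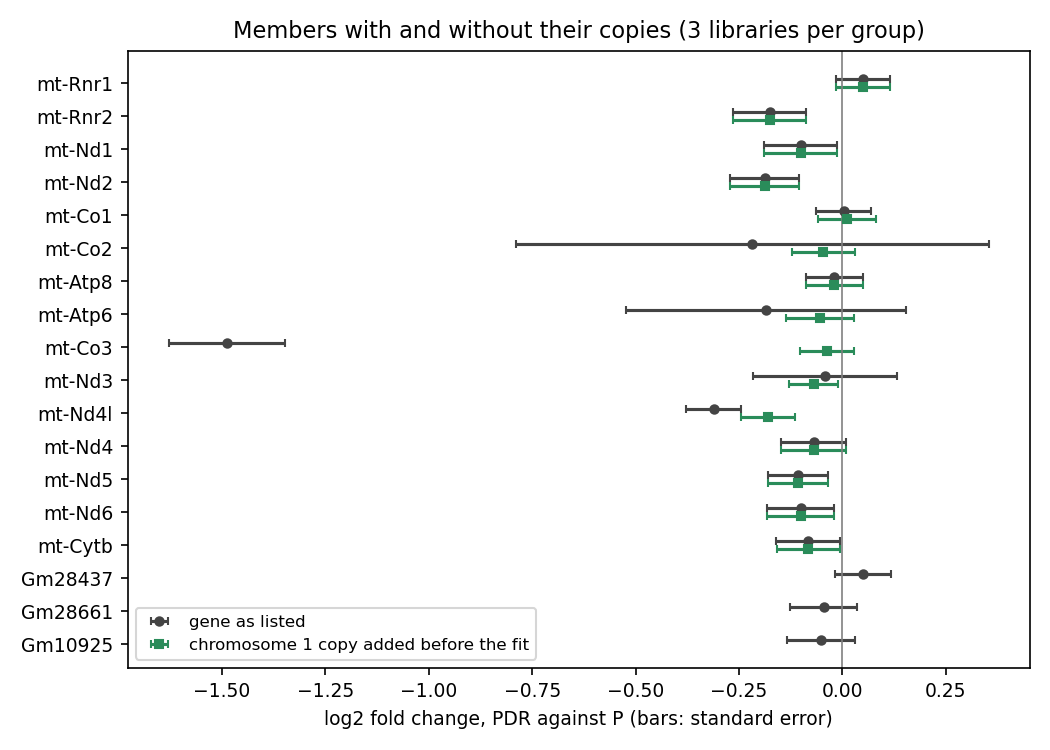
Log2 fold change of PDR against P for the 15 mitochondrial protein-coding and rRNA genes and the 3 copies (dark circles) and for each mitochondrial gene with its copy added before the fit (green squares), with standard errors, 3 libraries per group. mt-Co3 moves from -1.49 to -0.036 when Gm28437 is added, and the standard errors of mt-Co2 and mt-Atp6 shrink.

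Nuclear genes that replicate, transcribe and process the mitochondrial genome are not members. Assembly factors of cytochrome c oxidase and ATP synthase are not members either. Genes of both kinds were tested in the same fit. Of 88 names in 4 lists, 82 were in the table and 81 were tested. With edgeR, none of the 81 was called, where 0.246% of all tested genes were, so this says little about them. An unadjusted p below 0.05 was found for 4 of the 81, where 11.4% of all tested genes had one. These were Mrm3, Qtrt1, Cox14 and Cox10, the last 3 of which are named here after their values were seen. DESeq2 and limma-voom called none of the 81 either, with 1 and 4 at an unadjusted p below 0.05, where 7.16% and 11.5% of all tested genes were. In PDR 40 were higher and 41 lower. In the replication and transcription list (20 genes tested, 10 higher and 10 lower, 0 called) Polrmt, the mitochondrial RNA polymerase, was at 28.0 ± 1.04 CPM in P and 27.6 ± 1.84 CPM in PDR (log2 fold change -0.027, SE 0.0617, edgeR adjusted p = 0.912). Tfam, which packages the genome and starts transcription, was at 65.2 ± 1.38 CPM in P and 68.9 ± 0.515 CPM in PDR (log2 fold change 0.080, SE 0.0385, edgeR adjusted p = 0.470). Tfb2m, which opens the promoter, was at 42.9 ± 2.21 CPM in P and 42.9 ± 3.31 CPM in PDR (log2 fold change -0.0077, SE 0.0622, edgeR adjusted p = 0.975). The largest values in either direction were 0.37 for Mterf1b, a termination factor at 1.08 ± 0.126 CPM in P, and -0.084 for the rRNA methyltransferase Tfb1m (edgeR adjusted p = 0.569 and 0.842).

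Of the 17 tested genes for RNA stability and polyadenylation, 8 were higher and 9 lower, with 0 called. Lrpprc, which with Slirp protects mitochondrial mRNAs and keeps them polyadenylated, was at 97.4 ± 2.53 CPM in P and 94.8 ± 5.78 CPM in PDR (log2 fold change -0.041, SE 0.0493, edgeR adjusted p = 0.805), and Slirp was at 46.7 ± 1.62 CPM in P and 49.4 ± 1.52 CPM in PDR (log2 fold change 0.079, SE 0.0460, edgeR adjusted p = 0.556). Mtpap, the mitochondrial poly(A) polymerase, was at 34.8 ± 0.719 CPM in P and 35.9 ± 0.966 CPM in PDR (log2 fold change 0.046, SE 0.0472, edgeR adjusted p = 0.763). Pnpt1 and Supv3l1, the nuclease and helicase of the mitochondrial RNA degradosome, had log2 fold changes of 0.10 and 0.088 (edgeR adjusted p = 0.570 and 0.576). Among the Fastk family, Fastkd3 had the highest log2 fold change of the list (0.13) and Fastkd1 the lowest (-0.15). In the RNA processing and modification list (20 tested, 11 higher, 9 lower, 0 called), the largest values were those of the rRNA methyltransferase Mrm3, 0.20, and the tRNA modification enzyme Gtpbp3, -0.18 (edgeR adjusted p = 0.292 and 0.484). Of the 24 tested assembly factors of cytochrome c oxidase and ATP synthase, 11 were higher and 13 lower, with 0 called. They ranged from -0.17 in Taco1, the translational activator of mt-Co1, to 0.14 in Coa4 (edgeR adjusted p = 0.537 and 0.710).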

How the data were processed

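Stranded, poly(A)-selected libraries were prepared from 3 P and 3 PDR samples. Per the labels and the study's methods, the authors aligned reads with STAR 2.6.0a to GRCm38 and deposited gene-level expected counts of RSEM 1.3.1, not scaled between samples. Between 12.5% and 13.8% of the values in a library's column, zeros included, were not exactly whole as written. Read length and the strand setting of RSEM are not given in the sources used here. The authors' annotation was GENCODE M16, and symbols and transcript models used here came from GENCODE M21 on GRCm38, for 53274 of 53465 identifiers.

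Counts were rounded, filtered with filterByExpr (minimum count 10, minimum total 15) and scaled by the upper quartile. Groups were compared with the quasi-likelihood test of edgeR 4.0.16 (R 4.3.3), with Benjamini-Hochberg adjustment across every gene that was tested. CPM (counts scaled to a library of 1000000) use the same factors, and standard errors were derived from the F statistic. Shared sequence was searched with BLAST+ 2.17.0 in M21 transcripts (at least 200 bases, 95% identity). The fit was tested on simulated data. Alternatives were TMM, no scaling factor, scaling without mitochondrial genes, DESeq2 1.42.0, limma-voom (limma 3.58.1), other count filters, the replicate number as a block, and leaving out each sample. The members, lists and tests were chosen with earlier results of these data known. Named were all members, copies with a mean count of at least 10, Gm28439, 8 core nuclear factors and the extremes of each list. A count of 3, 0.0925 to 0.169 CPM, was the floor, which covers counting error only.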

Additional observations from a re-analysis of the deposited data

How the results depend on the processing

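The log2 fold change of mt-Co3 stayed between -1.71 and -1.37 when each library was left out in turn, and changed beyond the spread between libraries in 1 setting, the sum with its chromosome 1 copy before the fit (-0.036). Counts of members called are a description, since values of mt-Co3 chose the set. With DESeq2 2 members were called instead of 1 (mt-Co3 and mt-Nd4l), and without a filter on low counts 5 (also mt-Atp6, mt-Nd2 and mt-Rnr2). With the copies summed, a setting added after seeing the data, 0 were called. Of all tested genes 0.781% of 14216, 1.58% of 25274 and 0.246% of 14211 were called in these settings, in this order. Over all genes the 35 calls became 111 with DESeq2, 400 without a filter and 54 where every sample had 10 counts or more. With 1 library left out they numbered 8 (without PDR replicate 3) to 64 (without P replicate 2), and 9, 11, 12 and 46 without P replicate 3, P replicate 1, PDR replicate 2 and PDR replicate 1. Summing adds the copy's counts by construction, and for the others the cause was not tested. Correlations of deviations from the group means were 0.109, 0.095 and -0.056 between libraries of equal replicate number. Between libraries of unequal number they ran from -0.158 to 0.067. With 3 libraries per group these values cannot show whether equal numbers mark paired samples. A block for the replicate number gave 68 calls (0.478% of all tested genes), and among the members mt-Co3 alone.

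The log2 ratio of mt-Co3 plus Gm28437 ran from -0.12 (without PDR replicate 1) to 0.017 (without PDR replicate 3), and was 0.019 as a share of the set's counts. The difference in the mitochondrial share of a library (PDR minus P) was -0.0663 percentage points and ran from -0.158 (without PDR replicate 1) to -0.00400 (without PDR replicate 3). The share of the pair given to mt-Co3 differed by -5.58 percentage points, and by -6.10 to -5.25 with 1 library left out. No nuclear list gene was called in any of the 14 alternatives. All but 1 of the tRNA genes had at most 1 count in any library, so a difference between the groups was not detectable there at this depth.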
